A study of Drosophila melanogaster with 13 samples.

Results

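This account covers MN1-Ib motoneurons of Drosophila melanogaster in which RNA interference was directed at both Notch and Shal, set against control neurons with no RNA interference. It rests on 6 of the 13 libraries of the study, chosen by their labels alone: 3 Notch+Shal RNAi libraries and 3 control libraries, with all genes of the raw count table. MN1-Ib is an identified motoneuron of the larval ventral nerve cord that excites a body wall muscle. All neurons carried the driver MN1-Ib-GAL4 and the membrane reporter UAS-mCD8:GFP. The neurons of the first group also expressed a Notch RNAi and a Shal RNAi construct under that driver, and control neurons (MN1>GFP) carried neither. The labels give the genotypes no further, so the insertions and the genetic background of each construct are not known here. Larvae were at instar 3, and each library came from 4 to 8 neurons drawn into a patch pipette and pooled from 1 or 2 larvae. The other 7 libraries, 3 labelled Shal RNAi and 4 labelled Notch RNAi, entered the same fit and are used below to place single genes. The study's title concerns how the waveform of the action potential is kept by Notch and by the zinc finger factor Nerfin-1, and the comparison asks which transcripts differ in MN1-Ib when both genes are targeted.

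Shal encodes the Kv4-type potassium channel that carries an A-type current, a fast, transient outward current that shapes firing and repolarisation in fly motoneurons. Notch (gene symbol N) is a membrane receptor. When a ligand such as Delta or Serrate on a neighbouring cell binds it, proteases release its intracellular part, which joins Su(H) and Mastermind in the nucleus and switches on targets such as the E(spl) genes.

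Depth was similar in both groups, at 6229931 to 9066553 counts per Notch+Shal RNAi library and 7371480 to 9319116 per control library. A count was found for 8835 to 9272 genes per Notch+Shal RNAi library and for 9010 to 9244 genes per control library. Levels below are normalised CPM unless CPM alone is written: CPM is a count scaled to the library's total, and normalised CPM also adjusts that total by the library's TMM factor. No molecular identifiers are described, so floors and counting intervals cover counting error only. Whether libraries of 1 group came from the same larvae is not stated, and the p-values therefore reflect the spread between libraries, which may be technical. Of the 6 listed markers of glutamatergic motoneurons as a class, Lim3, tup and exex had at most 6.78 CPM in each of the 6 libraries. VGlut, the vesicular glutamate transporter, was present, at 1036, 2255 and 722 in Notch+Shal RNAi and at 1371, 822 and 380.0 in control. Proc, the neuropeptide proctolin, stood at 800.3 to 1909.6 in Notch+Shal RNAi and at 1444 to 4744 in control. ChAT, the enzyme that makes acetylcholine, had no count in any of the 6 libraries.

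No gene passed the test. The edgeR quasi-likelihood test called 0 of 8908 genes at an adjusted p under 0.05 (0%), and the lowest adjusted p was 0.482, for mthl8. At an unadjusted p under 0.05 there were 190 genes (2.13%), 108 higher (1.21%) and 82 lower (0.921%) in Notch+Shal RNAi. If no gene differed, 445 would be expected at that threshold. Limma voom called 0 genes as well, with and without sample quality weights. DESeq2 called 24 genes, 11 higher and 13 lower, and edgeR without its low-count filter called 27, 11 higher and 16 lower. Both of these lists held y, mthl8, lncRNA:roX1 and CG31698. Of these, CG31698 overlapped between groups and had 99.9% of its signal of the 6 libraries in 1 library. Of the 24 genes called by DESeq2, 12 had over 90% of their signal of the 6 libraries in 1 library, as had 14 of the 27 called without the filter. Libraries of the 2 groups did not overlap for 527 genes (5.92%), of which 219 were higher (2.46%) and 308 lower (3.46%) in Notch+Shal RNAi. With 3 libraries against 3, a gene without overlap cannot have an exact permutation p under 0.1. Both an unadjusted p under 0.05 and no overlap held for 80 genes (0.898%). Because no gene passed, the values that follow describe these libraries. The adjusted p was 1 for every gene tested other than mthl8.

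**Figure D1:**
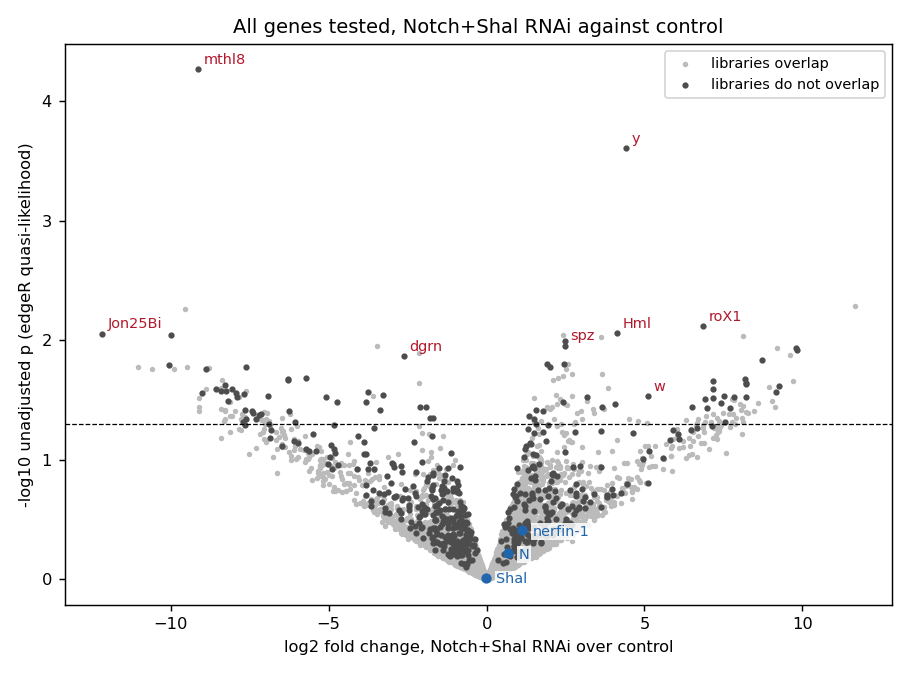
Each point is 1 of 8908 genes: the x axis gives the log2 fold change of Notch+Shal RNAi over control, the y axis -log10 of the unadjusted edgeR p, dark points are genes whose libraries do not overlap between groups and the dashed line marks an unadjusted p of 0.05. The genes mthl8 and y stand above all others on the y axis, while the 2 targeted genes, Shal and N, lie close to 0 on it.

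Neither of the 2 targeted genes passed the test, and the values of both overlapped between the groups. Shal (FBgn0005564, chromosome 3L, 19566851 to 19584568 on the minus strand, BDGP6.54) had 70.9, 30.0 and 21.5 normalised CPM in Notch+Shal RNAi against 4.73, 84.3 and 36.3 in control. The control values span the other group's values. The means were 40.8 ± 26.4 and 41.8 ± 40.1 (SD, n = 3 each), the log2 fold change was -0.03 (SE 0.90, 95% interval -1.91 to 1.85), and the 2-sided exact permutation test gave p = 1. N (FBgn0004647, chromosome X, 3134870 to 3172221 on the plus strand) had 14.99, 16.2 and 344 normalised CPM in Notch+Shal RNAi against 29.2, 25.5 and 182 in control. One library of each group, number 3, held most of the N signal. The log2 fold change of N was 0.66 (SE 1.26, 95% interval -1.98 to 3.31), and it was -2.35 without Notch+Shal RNAi 3 and 2.19 without control 3 (exact permutation p = 1 with all libraries, where 3 against 3 cannot give less than 0.1). RNA counted over the whole gene was the only readout of the targeting here, and the groups are called by their labels throughout.

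The zinc finger factor nerfin-1 (FBgn0028999), named in the study's title, is known for holding neurons in their differentiated state. It stood at 47.3, 103 and 12.9 normalised CPM in Notch+Shal RNAi against 12.3, 9.62 and 53.3 in control, so the groups overlapped. Its log2 fold change was 1.11 (SE 1.27, exact permutation p = 0.5), and it was 0.26 without Notch+Shal RNAi 2.

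**Figure D2:**
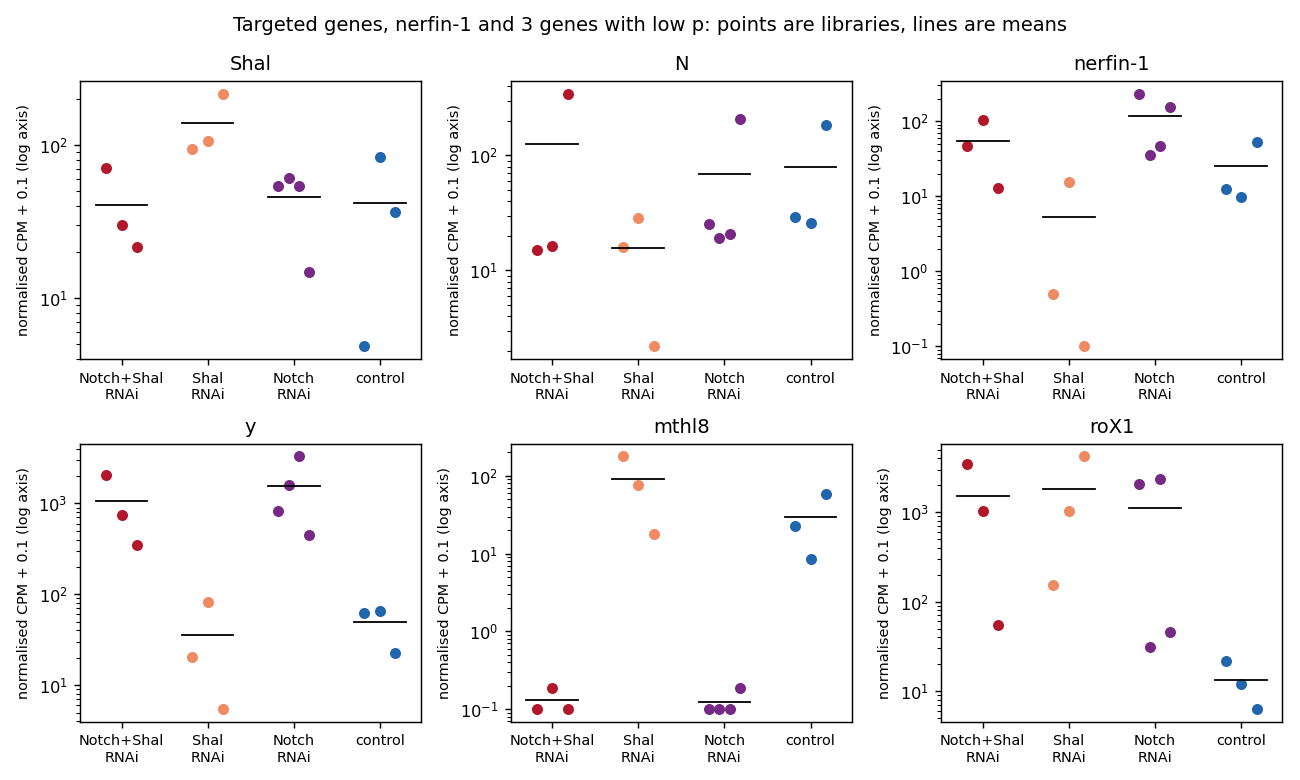
Normalised CPM plus 0.1 (log axis) of 6 genes in each library of the 4 groups, with a line at each group mean. Shal, N and nerfin-1 overlap between Notch+Shal RNAi and control, while y is high and mthl8 is at or near 0 in every library that carries Notch RNAi.

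Of the 26 listed genes of the Notch pathway, all of which could be tested, 20 were higher and 6 lower in Notch+Shal RNAi by log2 fold change, with 0 at an unadjusted p under 0.05 and a median of 0.51. Over all genes tested, 55.9% were higher and 44% lower, with a median of 0.12, and 2.13% had an unadjusted p under 0.05. The list's median was -0.24 without Notch+Shal RNAi 3, in which 10 of the 26 genes had their highest value. Among ligands, Delta stood at 0, 4.90 and 102 normalised CPM in Notch+Shal RNAi against 0.124, 0.381 and 58.0 in control (log2 fold change 0.87, SE 2.64). Serrate (Ser) stood at 0, 3.41 and 17.96 in Notch+Shal RNAi against 0.124, 3.14 and 9.42 in control (log2 fold change 0.75, SE 2.51). For both ligands the number 3 library was the highest of its group, as it was for N. Among the proteases that cleave the receptor, Psn, the catalytic subunit of gamma-secretase, stood at 98.8, 222 and 56.1 in Notch+Shal RNAi against 78.8, 67.1 and 119 in control (log2 fold change 0.51, SE 0.77). The nuclear partner Su(H) stood at 31.6, 21.1 and 20.8 in Notch+Shal RNAi against 10.8, 24.8 and 16.4 in control (log2 fold change 0.50).

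The libraries did not overlap for 3 of the 26 pathway genes, against 5.92% of all genes tested. The first, numb, whose product holds Notch signalling down in the daughter cell that inherits it, stood at 56.0, 34.8 and 20.8 in Notch+Shal RNAi against 3.73, 2.29 and 19.8 in control. All values of the first group were above those of control, by a log2 fold change of 2.11 (SE 1.34). The corepressor gene insv stood at 7.63, 3.85 and 5.54 in Notch+Shal RNAi against 2.61, 0 and 1.30 in control (log2 fold change 2.11, SE 2.34). The third, rumi, encodes a glycosyltransferase that modifies the Notch receptor and had 5.31, 7.09 and 11.4 in Notch+Shal RNAi against 13.3, 15.5 and 26.3 in control (log2 fold change -1.21, SE 1.33).

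Readout genes of the pathway followed single libraries. Of 13 listed Notch targets found in the table, 9 were tested, 7 higher and 2 lower in Notch+Shal RNAi, and their median log2 fold change was 1.79. That median was -1.18 without Notch+Shal RNAi 3, where 7 of the 9 genes had their highest value. E(spl)mdelta-HLH, a basic helix-loop-helix repressor, stood at 0, 3.85 and 92.3 in Notch+Shal RNAi against 0, 0.0952 and 10.2 in control. E(spl)mbeta-HLH, of the same family, stood at 0.273, 28.5 and 53.7 in Notch+Shal RNAi against 23.1, 4.67 and 92.7 in control. In CPM the 13 targets summed to 0.594, 111 and 776 in Notch+Shal RNAi 1 to 3 and to 126, 20.8 and 448 in control 1 to 3. Notch+Shal RNAi 1 was thus the lowest of the 6 libraries and Notch+Shal RNAi 3 the highest.

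The 8 neuroblast markers had a like order of libraries. They summed to 5.49, 10.04 and 280.4 CPM in Notch+Shal RNAi 1 to 3 and to 17.7, 15.02 and 202 CPM in control 1 to 3. Most of that came from grh, a transcription factor of neuroblasts and epidermis, at 3.27, 2.32 and 201 CPM in Notch+Shal RNAi against 11.8, 9.66 and 166 CPM in control, while the neuroblast factors ase and wor were at 0 or under 1 CPM in all 6 libraries. All 4 markers that could be tested were higher by log2 fold change and had their highest value in Notch+Shal RNAi 3, and their median was 1.05 with it and -1.94 without it. What the number 3 libraries' neuroblast marker RNA had to do with their N, Delta and E(spl) levels was not tested.

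Among potassium channel genes no member passed the test. Of 25 listed genes, 18 were tested, 11 higher and 7 lower (median log2 fold change 0.44). None had an unadjusted p under 0.05 or groups that did not overlap, against 2.13% and 5.92% of all genes tested. Without Notch+Shal RNAi 2 the median was -0.11. Shaker (Sh), the Kv1-type A current channel, stood at 696, 377 and 779.8 normalised CPM in Notch+Shal RNAi against 1197, 726 and 719 in control (log2 fold change -0.51, SE 0.56). The calcium-activated BK channel slo stood at 248, 144 and 238 in Notch+Shal RNAi against 182, 414 and 70.0 in control (log2 fold change -0.08, SE 0.81). Shab, the Kv2-type delayed rectifier, stood at 74.1, 119 and 60.9 in Notch+Shal RNAi against 50.03, 122 and 37.3 in control (log2 fold change 0.28, SE 0.71). The values of each of these channels overlapped between groups. The lowest p in the list was that of Dpp10, whose mammalian relative is an auxiliary subunit of Kv4 channels, at 50.4, 144 and 19.6 in Notch+Shal RNAi against 16.1, 38.6 and 15.7 in control (log2 fold change 1.61, SE 0.86).

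Sodium, calcium and other cation channels also overlapped. Of 16 tested, 10 were higher and 6 lower, and the median log2 fold change was 0.12, equal to the median of all genes at that rounding. The voltage-gated sodium channel para stood at 915, 263 and 565 in Notch+Shal RNAi against 485, 838 and 294 in control (log2 fold change 0.11, SE 0.74, 95% interval -1.44 to 1.66). The presynaptic calcium channel cac stood at 503, 471 and 314 in Notch+Shal RNAi against 478, 517 and 311 in control, the closest agreement of levels among the channels named here. Intervals of this width leave room for a several-fold difference in either direction in para, and for Shal as given above. Krüppel (Kr), a transcription factor linked to the homeostatic response of these neurons, stood at 14.99, 20.4 and 31.2 in Notch+Shal RNAi against 13.6, 38.6 and 6.06 in control (log2 fold change 0.19, SE 1.31).

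The genes with the lowest p that were higher in Notch+Shal RNAi were headed by yellow. The gene y (FBgn0004034, chromosome X, 356509 to 361245, plus strand), which acts in cuticle pigmentation and is a common marker on fly transgenes, had 2071, 740.0 and 352 normalised CPM in Notch+Shal RNAi against 61.6, 64.8 and 22.3 in control. Every Notch+Shal RNAi library was above every control library. The log2 fold change was 4.41 (SE 0.99, 95% interval 2.34 to 6.48), and it stayed between 3.46 and 4.82 when each library was left out in turn. White (w), an eye pigment transporter that is also a usual transgene marker, stood at 125, 602 and 14.4 in Notch+Shal RNAi against 3.24, 10.5 and 7.80 in control, again with no overlap (log2 fold change 5.10, SE 2.07). Vermilion (v), another eye colour gene of that list, overlapped, at 0.273, 23.0 and 11.2 in Notch+Shal RNAi against 8.59, 5.43 and 0.217 in control.

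Both roX RNAs, the noncoding RNAs of the complex that raises X-linked transcription in males, had groups that did not overlap. The RNA roX1 (FBgn0019661, chromosome X, 3857230 to 3862697, minus strand) stood at 3509, 1024 and 54.9 in Notch+Shal RNAi against 21.4, 12 and 6.17 in control (log2 fold change 6.86, SE 2.13). The RNA roX2 stood at 114, 7.44 and 7.55 in Notch+Shal RNAi against 0.622, 0.190 and 0.217 in control (log2 fold change 6.93, SE 2.80). Within Notch+Shal RNAi, library 1 was the highest for both and library 3 the lowest for roX1. Among other genes of dosage compensation and sex determination, msl-2 stood at 22.2, 52.2 and 5.54 in Notch+Shal RNAi against 0.124, 2.57 and 11.2 in control, and Sxl at 92.4, 109 and 243 in Notch+Shal RNAi against 223, 179.5 and 227 in control. The labels of these libraries do not give the sex of the larvae, so sex and genotype cannot be told apart for these genes.

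Other genes of this group have known roles in signalling and at membranes. The Toll ligand spz stood at 173, 54.4 and 71.7 in Notch+Shal RNAi against 19.5, 17.4 and 16.2 in control (log2 fold change 2.49, SE 0.89), with no overlap and a narrow control range. The gene vsg, a sialomucin-type membrane protein, stood at 68.4, 86.7 and 169 in Notch+Shal RNAi against 11.4, 22.1 and 24.7 in control (log2 fold change 2.48, SE 0.88). The Fos subunit kay stood at 99.5, 526 and 68.3 in Notch+Shal RNAi against 57.2, 68.0 and 57.6 in control (log2 fold change 1.92), and the fold change was 0.46 without Notch+Shal RNAi 2. Kay is an activity-regulated transcription factor, and of the Notch+Shal RNAi libraries only library 2 stood far from control in it. In Shal RNAi alone kay stood at 144.5 to 263.6, and in Notch RNAi alone at 117.6 to 221.9.

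The microtubule minus-end protein gene Patronin stood at 58.2, 180.3 and 51.5 in Notch+Shal RNAi against 5.23, 18.3 and 29.6 in control (log2 fold change 2.45). Spred, whose product restrains the Ras and MAP kinase pathway, stood at 69.1, 282 and 74.5 in Notch+Shal RNAi against 31.5, 39.1 and 34.8 in control (log2 fold change 2.01). Both had no overlap between groups, and both had their highest value in Notch+Shal RNAi 2, without which the log2 fold change was 1.62 for Patronin and 1.03 for Spred. AP-1-2beta, an adaptor subunit of clathrin coats, showed that library's weight most, at 50.8, 571 and 35.8 in Notch+Shal RNAi against 13.2, 54.2 and 41.6 in control, with a log2 fold change of 2.59 that was 0.25 without library 2. For CG13928, with 333, 2143 and 81.3 in Notch+Shal RNAi against 123, 245 and 114 in control, the log2 fold change moved likewise, and was 2.41 with all libraries and 0.36 without library 2. CG4716 was high in libraries 1 and 3 instead, at 606, 4.55 and 619 in Notch+Shal RNAi against 60.5, 32.6 and 7.26 in control.

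Of the 12 genes with the lowest p in this direction, 8 had groups that did not overlap. Over all genes tested, 2.46% were higher without overlap. The 12 were picked by their p in the same comparison, so that count is no separate support. The highest value lay in Notch+Shal RNAi 2 for 6 of the 12 and in libraries 1 and 3 for 3 each. The hemocyte gene Hml, also among the 12, is described with the cell type markers.

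**Figure D3:**
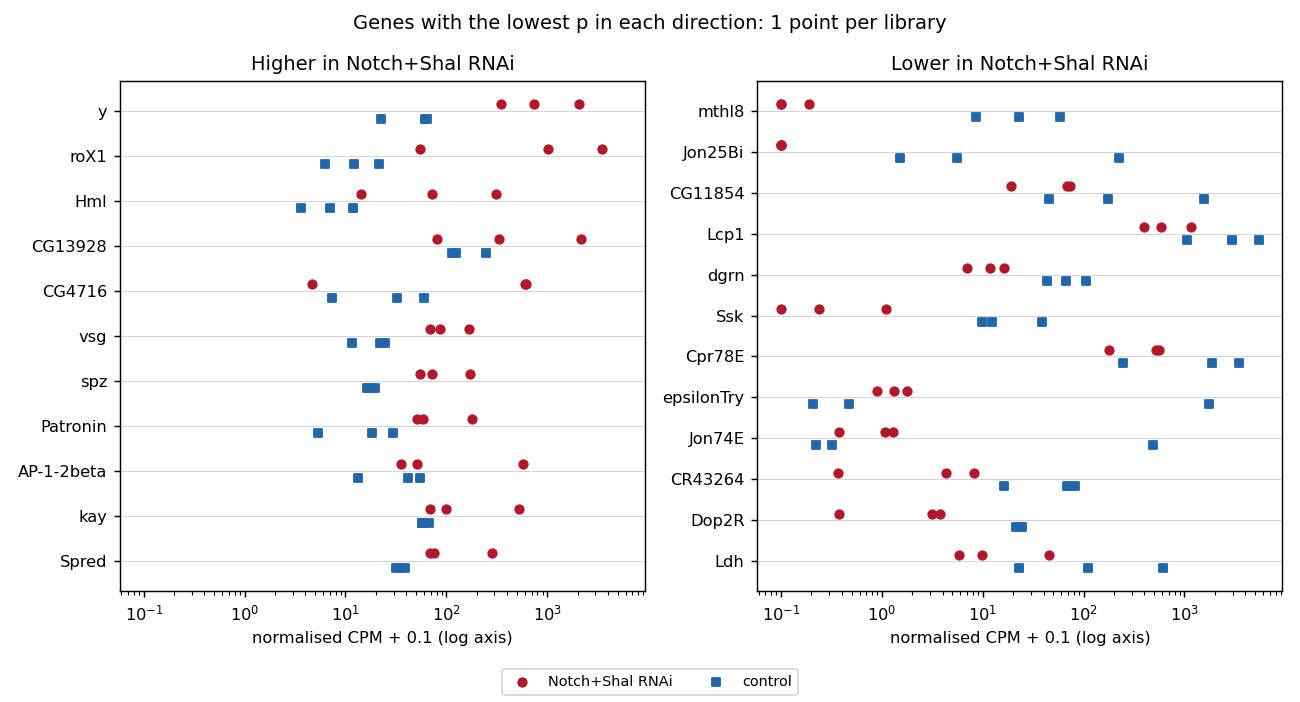
Normalised CPM plus 0.1 (log axis) of genes with the lowest unadjusted p, 11 of the 12 higher and all 12 lower, 1 point per library, Notch+Shal RNAi as circles above control as squares. Groups do not overlap for 8 of the higher genes and 6 of the lower genes, which were picked by p in the same comparison. Over all genes tested, 2.46% were higher and 3.46% lower without overlap. The genes epsilonTry and Jon74E are set apart by 1 control library.

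Among genes that were lower in Notch+Shal RNAi, mthl8 had the lowest p of all genes. The gene mthl8 (FBgn0052475, chromosome 3L, 22428 to 26308, plus strand), of the methuselah family of G protein-coupled receptors, had 0, 0.0875 and 0 normalised CPM in Notch+Shal RNAi against 22.9, 8.38 and 57.7 in control. That is 1 count in all against 805 counts. Summed counts, scaled by each group's summed TMM-adjusted library totals, were 717 times as high in control (exact 95% counting interval 128 to 28337). The fitted log2 fold change was -9.13 (SE 1.80). It was between -10.71 and -8.20 when each library was left out in turn.

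Dop2R, the D2-like dopamine receptor, was the neurotransmitter receptor that stood out in this direction. It had 0.273, 3.68 and 3.02 in Notch+Shal RNAi against 24.3, 23.1 and 21.4 in control (log2 fold change -3.29, SE 1.40). The 3 control libraries lay close together, and all 3 Notch+Shal RNAi libraries lay far below them. The ubiquitin ligase gene dgrn (FBgn0037384, chromosome 3R), whose product is known to act on Hairy/E(spl)-type repressors, stood at 6.95, 11.6 and 16.3 in Notch+Shal RNAi against 105, 43.5 and 66.8 in control (log2 fold change -2.63, SE 0.97). Its fold change moved little when libraries were left out, from -2.95 to -2.25. In Notch RNAi alone dgrn stood at 38.4 to 101, and in Shal RNAi alone at 4.46 to 41.8. What part either construct had in its level was not tested. The noncoding RNA CR43264 stood at 4.22, 0.263 and 8.06 in Notch+Shal RNAi against 82.4, 16.1 and 69.0 in control (log2 fold change -3.74). Neither dgrn nor CR43264 had overlapping groups.

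Ssk, a membrane protein of the smooth septate junctions of gut epithelia, stood at 0.136, 0 and 1.01 in Notch+Shal RNAi against 38.7, 9.81 and 12.3 in control (log2 fold change -5.72, SE 2.28). Jon25Bi, a digestive serine protease, had 0 counts in all Notch+Shal RNAi libraries and 2434 counts in control. It was at least 198.5-fold lower against a floor of 3 counts in each library. Control 2 held most of it, at 5.48, 226 and 1.41 normalised CPM in control 1 to 3. The digestive proteases epsilonTry and Jon74E were decided by the same library, with epsilonTry at 1.23, 0.788 and 1.68 in Notch+Shal RNAi against 0.373, 1767 and 0.108 in control, and Jon74E at 0.273, 0.963 and 1.18 in Notch+Shal RNAi against 0.124, 484 and 0.217 in control. Their log2 fold changes of -8.90 and -7.62 turned to 2.28 and 2.12 without control 2.

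The larval cuticle gene Lcp1 stood at 1156, 396 and 589 in Notch+Shal RNAi against 5428, 2938 and 1053 in control (log2 fold change -2.14, SE 0.78). Cpr78E, another cuticle protein gene, stood at 525, 179 and 553 in Notch+Shal RNAi against 3484, 1864 and 245 in control (log2 fold change -2.15). Values of both overlapped between groups. CG11854 stood at 73.0, 18.7 and 68.3 in Notch+Shal RNAi against 1562, 173 and 45.7 in control, with a log2 fold change of -3.48 that was -1.04 without control 1. The tracheal receptor btl, of the fibroblast growth factor family, had 0 counts in Notch+Shal RNAi and 93 counts in control. Control 1 to 3 held 37, 54 and 2 of these, so control 3 was itself under the floor of 3 counts. Against the control mean, which rests on control 1 and 2, btl was at least 8.48-fold lower. It also had 0 counts in Shal RNAi 1 and 2 and in Notch RNAi 1 and 2. The gene btl was among 8 tested markers of trachea and epidermis, of which 2 were higher and 6 lower (median log2 fold change -0.68). Summed, the 9 listed markers stood at 559.6, 687 and 1388 CPM in Notch+Shal RNAi against 1664, 3003.5 and 496 CPM in control, so the groups overlapped, and what part they had in the cuticle genes was not tested.

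Lactate dehydrogenase (Ldh), which turns pyruvate into lactate, had 9.67, 45.4 and 5.71 in Notch+Shal RNAi against 22.9, 613 and 109 in control (log2 fold change -3.61, SE 1.503). Of 12 glycolysis genes tested, 2 were higher and 10 lower (median log2 fold change -0.64). Ldh alone had an unadjusted p under 0.05, against 0.921% of all genes tested that were lower at that threshold. Its log2 fold change was -1.70 without control 2. For 9 of the 12 the highest value lay in control 2, and without that library the median was 0.42. Gapdh1, the glyceraldehyde phosphate dehydrogenase, stood at 359.6, 1703 and 348 in Notch+Shal RNAi against 172, 2539 and 702 in control, so that control 2 and Notch+Shal RNAi 2 were both high.

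Of 18 heat shock genes tested, 16 were higher and 2 lower (median log2 fold change 0.40), and 4 did not overlap between groups, all higher in Notch+Shal RNAi, as 2.46% of all genes tested were. The inducible chaperone Hsp70Bb stood at 1857, 920.1 and 788 in Notch+Shal RNAi against 597, 486 and 320.0 in control (log2 fold change 1.35, SE 0.62). Hsp70Ab stood at 11.0, 8.58 and 1.34 in Notch+Shal RNAi against 0, 0.571 and 0.217 in control (log2 fold change 4.63, SE 2.33). Hsp70Ba stood at 4.36, 1.58 and 2.85 in Notch+Shal RNAi against 1.37, 0.762 and 0.108 in control (log2 fold change 1.95, SE 1.93). These Hsp70 genes are near-identical copies, so reads may have been split among them or lost, and their values are uncertain one by one. DnaJ-1, an Hsp40 cochaperone, stood at 73.2, 81.6 and 76.0 in Notch+Shal RNAi against 36.6, 32.1 and 55.7 in control (log2 fold change 0.89, SE 1.12). The small heat shock gene Hsp23 overlapped, at 3352, 2563 and 4698.5 in Notch+Shal RNAi against 2552, 1819.7 and 5015 in control.

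Medians of synaptic gene lists moved with single libraries. Of 9 nicotinic acetylcholine receptor genes, 3 were higher and 6 lower (median log2 fold change -0.19). Among 13 genes of presynaptic homeostasis 8 were higher and 5 lower (median 0.08). With 1 library left out, these medians ranged from -0.94 to 0.21 and from -0.15 to 0.24, so neither kept to 1 direction. Of 22 genes of SNARE proteins and the vesicle cycle, 16 were higher and 6 lower (median log2 fold change 0.29), and 13 had their highest value in Notch+Shal RNAi 2. Without that library the median was -0.16. The vesicle protein nSyb, synaptobrevin, stood at 573, 1775 and 142 in Notch+Shal RNAi against 349, 734 and 520.2 in control, with library 2 the highest and library 3 the lowest of all 6. The plasma membrane SNARE Syx1A, syntaxin, had the opposite order in library 2, at 1782, 617 and 901 in Notch+Shal RNAi against 1200.1, 1575 and 503 in control (log2 fold change 0.01, SE 0.66). Of 25 receptors for GABA, glutamate and monoamines, 18 were higher and 7 lower (median 0.60), 14 of them highest in Notch+Shal RNAi 2, and the median was 0.04 without that library. The octopamine receptor Oamb stood at 21.0, 355 and 3.53 in Notch+Shal RNAi against 16.7, 16.6 and 86.8 in control.

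Genes of synapse recognition and of retrograde signalling gave further members at an unadjusted p under 0.05. Nrx-1, the presynaptic adhesion protein neurexin, stood at 8.04, 147 and 28.9 in Notch+Shal RNAi against 7.59, 8.95 and 9.85 in control (log2 fold change 2.80, SE 1.33). It was 1.06 without Notch+Shal RNAi 2, and the groups overlapped. Of 24 dpr and DIP genes, immunoglobulin proteins that pair across synapses, 13 were higher and 11 lower, with a median of 0.18. One of them, DIP-kappa, had 205 counts in Notch+Shal RNAi, at 21.9, 0.438 and 6.55 normalised CPM, and 0 counts in control. DIP-kappa was at least 29.4-fold higher against a floor of 3 counts in each library. Its partner family member dpr12 stood at 156, 320 and 21.2 in Notch+Shal RNAi against 69.8, 12.95 and 22.5 in control (log2 fold change 2.24, SE 0.99).

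Of 15 genes of BMP and activin signalling, through which muscle signals back to the motoneuron, 12 were higher and 3 lower (median 0.48). In 9 of them the highest value lay in Notch+Shal RNAi 2, and the median was -0.081 without that library. Smox, the Smad of the activin branch, stood at 80.1, 374 and 60.9 in Notch+Shal RNAi against 51.6, 50.5 and 48.8 in control (log2 fold change 1.77, SE 0.80), with no overlap, and 0.48 without Notch+Shal RNAi 2. The type II receptor wit overlapped, at 5.995, 35.5 and 1.01 in Notch+Shal RNAi against 1.12, 14.95 and 8.66 in control. In other lists, SERCA, the calcium pump of the endoplasmic reticulum, stood at 174, 262 and 100.4 in Notch+Shal RNAi against 51.6, 82.6 and 47.1 in control (log2 fold change 1.56, SE 0.71), with no overlap. CrebA, a transcription factor of the secretory pathway, stood at 140.3, 62.9 and 501 in Notch+Shal RNAi against 32.7, 15.8 and 118 in control (log2 fold change 2.08, SE 0.93), and it was 0.87 without Notch+Shal RNAi 3, the highest library.

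Motoneuron identity genes did not set the groups apart as a list: of 9 tested, 7 were higher and 2 lower, with a median of 0.69. That median was -0.57 without Notch+Shal RNAi 2. The zinc finger homeodomain factor zfh1 stood at 110.2, 225 and 87.3 in Notch+Shal RNAi against 74.0, 51.9 and 43.4 in control, with no overlap (log2 fold change 1.32, SE 0.82). The homeodomain factor eve, a determinant of dorsal motoneurons, stood at 19.3, 738 and 12.9 in Notch+Shal RNAi against 31.9, 77.9 and 55.3 in control, so library 2 was the highest and libraries 1 and 3 were below all control libraries. The 6 motoneuron markers summed to 3329, 5222 and 1539 CPM in Notch+Shal RNAi 1 to 3 and to 4740.2, 6330.4 and 2346 CPM in control 1 to 3, and the factors Lim3, tup and exex were at 0 or under 7 CPM in all 6 libraries.

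RNA of muscle was lower in the Notch+Shal RNAi libraries by log2 fold change in all 15 markers, with a median of -1.49, which lay between -2.01 and -1.09 when each library was left out. None had an unadjusted p under 0.05, against 0.921% of all genes tested that were lower at that threshold. The groups did not overlap for 2, against 3.46% of all genes tested that were lower without overlap. Mhc, the muscle myosin heavy chain, stood at 4.91, 2.19 and 16.6 in Notch+Shal RNAi against 25.0, 41.9 and 45.0 in control (log2 fold change -2.24, SE 1.40). The LIM protein gene Mlp60A stood at 50.8, 10.5 and 124.2 in Notch+Shal RNAi against 147, 259 and 124.4 in control, the last pair being almost equal. Summed over the 15 markers, muscle RNA took 1014.5, 405 and 1657 CPM in Notch+Shal RNAi 1 to 3, against 1227, 3694 and 4479 CPM in control, so control 1 lay within the range of the other group. In such pooled samples, fewer cells of a type and less RNA per cell cannot be told apart.

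Hemocyte RNA went the other way. Of 11 markers of these blood cells, 10 were higher and 1 lower (median log2 fold change 2.28), and 10 of the 11 had their highest value in Notch+Shal RNAi 3. Hml, the clotting factor hemolectin, stood at 72.6, 14.1 and 309 in Notch+Shal RNAi against 3.48, 11.9 and 6.93 in control (log2 fold change 4.14, SE 1.43), with no overlap. The collagen Col4a1 stood at 67.2, 4.99 and 145 in Notch+Shal RNAi against 4.98, 11.1 and 0.975 in control (log2 fold change 3.66). Hemese (He), a surface protein of larval hemocytes, stood at 48.8, 5.87 and 1188 in Notch+Shal RNAi against 44.9, 15.05 and 27.1 in control (log2 fold change 3.83, SE 1.54). These 3 markers were the ones at an unadjusted p under 0.05, against 1.21% of all genes tested that were higher at that threshold. The 11 markers summed to 668, 165 and 2051 CPM in Notch+Shal RNAi 1 to 3 and to 360.2, 182 and 229 CPM in control 1 to 3, so library 2 lay below all control libraries, and the list's median was 0.64 without library 3.

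Fat body RNA was present in all 6 libraries and did not part the groups. Its 10 markers summed to 21584, 3155 and 30065 CPM in Notch+Shal RNAi 1 to 3 and to 13922, 26864 and 8995 CPM in control 1 to 3. Glial markers summed to 387, 225 and 221 CPM in Notch+Shal RNAi and to 576, 557 and 362 CPM in control. Most of these sums came from Gs2 and nrv2. By gene, 5 of 8 tested glial markers were higher and 3 lower (median log2 fold change 0.38). The gene repo, which defines most glia, was at 0 in 5 libraries and 2.44 CPM in control 3. The GABAergic markers Gad1 and VGAT summed to 0.148, 14.8 and 8.51 CPM in Notch+Shal RNAi and to 21.6, 10.7 and 12.8 CPM in control. What part RNA of other cell types had in the differences given above was not tested.

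**Figure D4:**
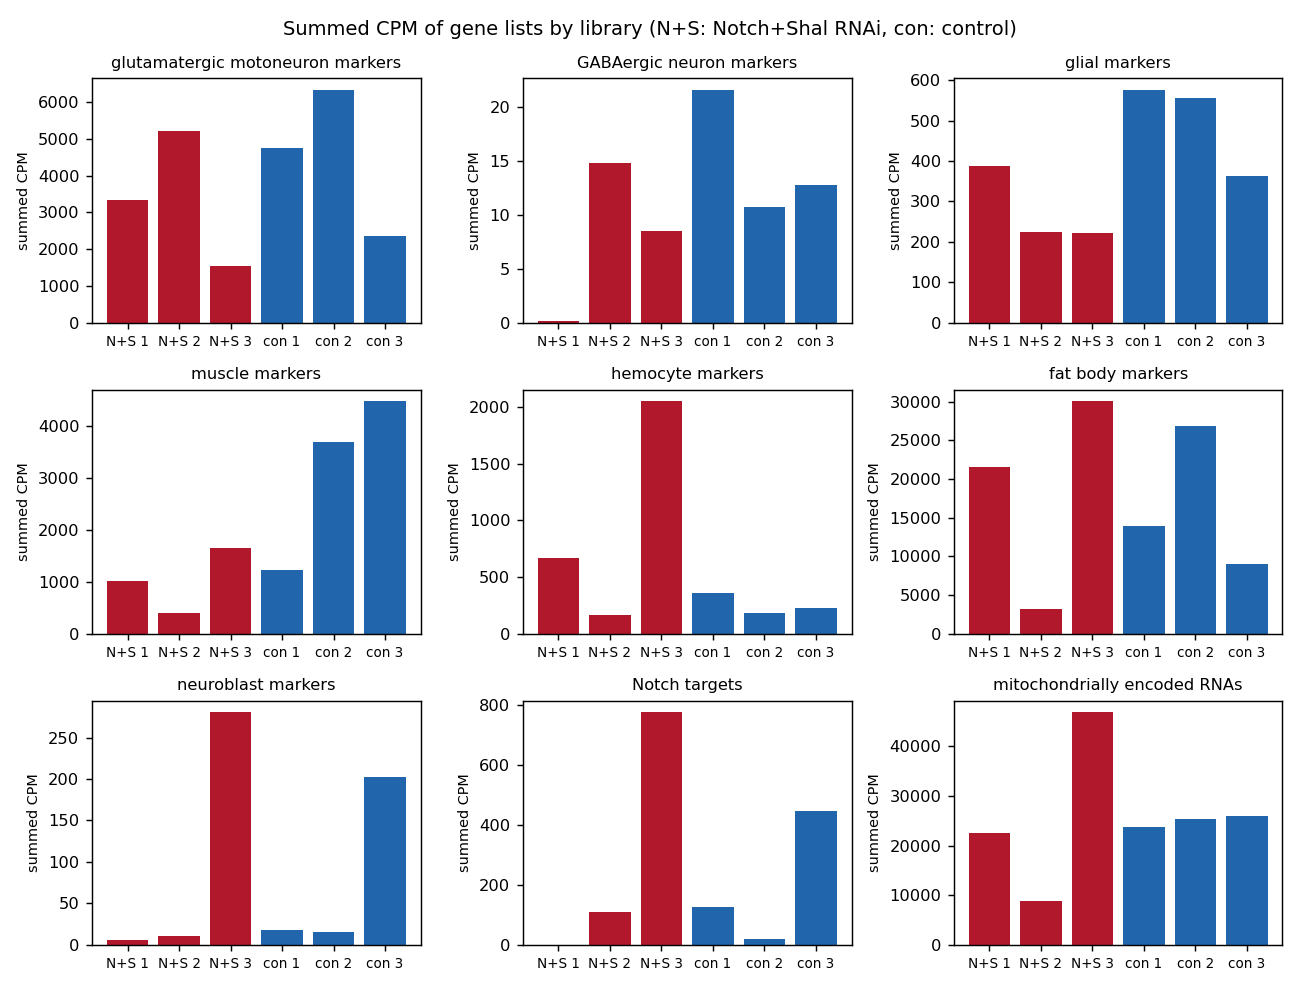
Summed CPM of the members of 9 gene lists in each of the 6 libraries, Notch+Shal RNAi (N+S 1 to 3, red) left of control (con 1 to 3, blue). Hemocyte, neuroblast, Notch target and mitochondrial RNA peak in Notch+Shal RNAi 3, at 2051, 280.4, 776 and 46877 CPM, and muscle RNA is highest in control 2 and 3.

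The 3 Notch+Shal RNAi libraries differed from each other more than the control libraries did. Over the 8908 genes the median SD of log2 (normalised CPM + 1) was 1.22 in Notch+Shal RNAi and 0.769 in control. Spearman's correlation across these genes, which are not independent replicates, was 0.567 to 0.699 within Notch+Shal RNAi, 0.786 to 0.813 within control and 0.701 to 0.807 between the groups. Of all genes tested, 15.2%, 24.5% and 23.1% had their highest value of the 6 libraries in Notch+Shal RNAi 1, 2 and 3, against 13.9%, 11.9% and 11.4% in control 1, 2 and 3. Whole functional classes followed single libraries in this way. Of 84 cytoplasmic ribosomal protein genes, 73 were higher and 11 lower (median log2 fold change 0.15), 73 had their highest value in Notch+Shal RNAi 3, and the median was -0.41 without it. Mitochondrially encoded RNA took 2.26%, 0.893% and 4.69% of the counts of the Notch+Shal RNAi libraries, against 2.38%, 2.54% and 2.60% of those of control. Of 23 innate immune genes tested, 14 were highest in Notch+Shal RNAi 3, among them the stress-induced gene TotA, at 381, 17.0 and 3487 in Notch+Shal RNAi against 148, 425 and 105 in control.

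**Figure D5:**
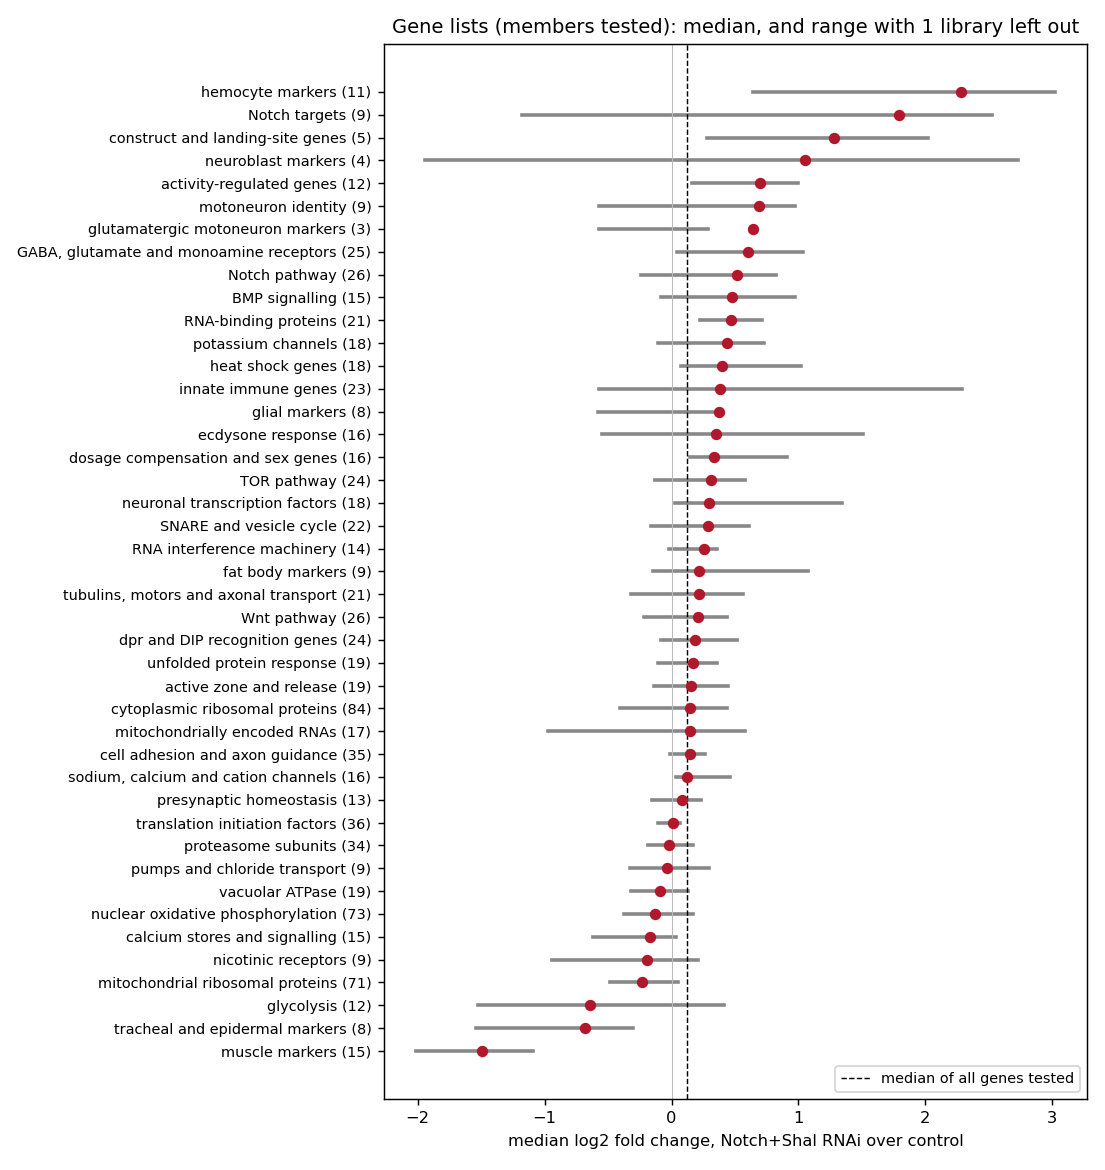
Median log2 fold change of Notch+Shal RNAi over control for each gene list with 3 or more tested members (points, number tested in brackets), with the range of that median over the fits that leave out 1 library (bars) and the median of all genes (dashed line). The tested members can change when a library is left out, so a point may lie off its bar. Muscle markers stay below 0 and hemocyte markers above 0 over their whole bars, while the bar of Notch targets spans 0. Other lists also stay on 1 side, such as tracheal and epidermal markers below 0 and RNA-binding proteins above it.

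Set beside the single RNAi libraries, y and mthl8 followed the Notch RNAi label. The gene y stood at 352 to 3290.1 normalised CPM in the 7 libraries that carry Notch RNAi, alone or with Shal RNAi, and at 5.35 to 81.7 in the 6 that do not. For mthl8 the ranges were 0 to 0.0875 and 8.38 to 178. Neither differed between Notch+Shal RNAi and Notch RNAi alone beyond the spread: the log2 fold change was -0.54 for y (SE 0.82) and 0.21 for mthl8 (SE 1.502), with an adjusted p of 1 for both. By contrast roX1 ranged from 30.8 to 4221 in all 10 libraries with any RNAi construct and from 6.17 to 21.4 in control. The genes kay and Spred were also above control in all 10, at 68.3 to 526 and 61.9 to 282. In control they stood at 57.2 to 68.0 and 31.5 to 39.1. Dop2R stood at 66.3, 3.24, 43.6 and 2.94 normalised CPM in Notch RNAi 1 to 4 and at 29.01 to 96.6 in Shal RNAi. Notch RNAi 2 and 4 were thus below all control libraries, and Notch RNAi 1 and 3 were above them.

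No gene passed the test of whether the effect of 1 construct depended on the other. The interaction of Notch RNAi and Shal RNAi called 0 of 8908 genes (0%) in edgeR, with 710 at an unadjusted p under 0.05 (7.97%) and a lowest adjusted p of 0.554, and DESeq2 called 118. Among the genes named here, Hsp70Bb had the lowest p for it, with an interaction of -3.29 on the log2 scale (SE 0.87, adjusted p = 0.554). It stood at 788 to 1857 in Notch+Shal RNAi, 1540 to 6699 in Shal RNAi, 554 to 1632 in Notch RNAi and 320.0 to 597 in control. The sodium channel para had an interaction of -2.996 (SE 1.05, adjusted p = 0.554), with 263 to 915 in Notch+Shal RNAi, 1064 to 4835 in Shal RNAi, 114 to 1152 in Notch RNAi and 294 to 838 in control. For Sh the interaction was -1.99 (SE 0.78, adjusted p = 0.554). In para and Hsp70Bb, Shal RNAi 1 and 3 lay above the other 11 libraries, while Shal RNAi 2 lay within their range. Shal RNAi 1 and 3 stand apart in the whole series, with 13.5% and 11.5% of their counts from mitochondrially encoded RNA. Without these 2 libraries 0 genes passed for the interaction as well, and their part in the values of single genes was not tested. Against Shal RNAi alone 0 genes passed (0%) in edgeR, with 924 at an unadjusted p under 0.05 (10.4%), and against Notch RNAi alone 0 passed (0%), with 258 (2.9%), while DESeq2 called 308 and 33. These comparisons share libraries with each other and with the comparison against control.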

How the data were processed

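RNA came from pools of patched MN1-Ib neurons. The labels' protocols describe polyadenylated RNA, a switched template, PCR and paired reads of 100 bases. The values are raw read counts per gene, 17753 genes by 13 libraries, as the authors deposited them. BDGP6, STAR 2.7.0e, limma 3.40.6, edgeR 3.26.7 and R 3.6.1 appear per the submitters' processing notes. Not given in the sources used here are the annotation, what each tool did, and how strand and multiply matching reads were treated, so genes that overlap may share reads. Among the 45 genes named by rule this touches 18, with a partner on the opposite strand in 15. For 17626 gene IDs BDGP6.54 supplied symbols and positions, and 127 went unmatched.

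Sample labels defined the groups. In R 4.3.3, edgeR 4.0.16 dropped low-count genes (default settings: count 10, total 15), computed TMM factors and fitted all 13 libraries together by robust quasi-likelihood with no replicate block. P-values are 2-sided, and adjustment by Benjamini-Hochberg covered 8908 genes with a threshold of 0.05. Standard errors and 95% intervals come from that fit, whose median dispersion of 1.36 equals a biological coefficient of variation of 1.17. Exact permutation tests (scipy 1.17.1, 2-sided, smallest p 0.1 with 3 against 3) were added for Shal, N and nerfin-1. The floor of 3 counts is 0.322 to 0.482 CPM in the 6 libraries. Where a group had 0 counts, the fold that this floor allows is printed, since a fitted fold change is then no bound. The 45 gene lists (1037 members in the table, 872 tested, 26 names unmatched) are described by counts and medians.

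The comparison, lists and rules were chosen with earlier results of these data known. The naming rule took Shal, N and nerfin-1; the 12 genes with the lowest p in each direction, given a mean of 20 normalised CPM or more and no empty library in the higher group; as many as 2 genes per list and direction with an unadjusted p under 0.05; and 7 genes of interest, among them Sh, Kr and Ser. Cell type markers come from fixed lists, and other list members were named after their values were seen. Values of 1 gene that the rule named are not reported here. Libraries of 1 group all differed by more than sampling noise (chi-square per degree of freedom, 165 to 577). The fits were tested on simulated data. Alternatives were other scaling (RLE, TMMwsp), no filter, the 6 libraries alone, DESeq2 1.42.0, voom of limma 3.58.1 with or without quality weights, a replicate block, each library left out and, chosen after seeing the data, a fit lacking Shal RNAi 1 and 3.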

Additional observations from a re-analysis of the deposited data

How the results depend on the processing

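The count of genes called in Notch+Shal RNAi against control was 0 in edgeR with RLE or TMMwsp factors, in the 6 libraries alone, in both voom fits, without each single library and without Shal RNAi 1 and 3. It was 27 with no low-count filter and 24 in DESeq2. With no filter and in DESeq2 the counts were 65 and 118 for the interaction, 111 and 308 against Shal RNAi, and 26 and 33 against Notch RNAi. Leaving out 1 library gave 0 to 1 genes against Shal RNAi (1 without control 2) and 0 in the other comparisons. Genes at an unadjusted p under 0.05 against control numbered 136 to 276 when 1 library was left out, 368 with no filter, 332 with quality weights and 291 without Shal RNAi 1 and 3. Their split was 79 higher and 111 lower in voom and 140 and 192 with quality weights, against 108 and 82 in edgeR, 136 and 38 without Notch+Shal RNAi 1, 57 and 79 without control 1, and 56 and 88 without control 2. The median log2 fold change of all genes was 0.12 with TMM and -0.11 in voom.

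Replicate numbers are shared between the groups, but same-numbered libraries correlated at 0.247, 0.0906 and 0.155 in their deviations from the group means, so the numbers were not taken as pairs. Each Notch+Shal RNAi library correlated best with the control library of its own number, a hint from the data only. With the replicate block 0 genes were called and 121 had an unadjusted p under 0.05, and the log2 fold change was 0.21 for Shal and 0.12 for slo.

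Directions turned only in genes far from the threshold and in 2 proteases. In voom the log2 fold change was 0.42 for Shal, -0.48 for N, 0.19 for slo and -0.16 for Ser, and with quality weights it was 0.53 for Shal, -0.75 for N, 0.32 for slo, -0.70 for Delta and -1.64 for Ser. Leaving out 1 library gave -0.70 to 0.98 for Shal, -2.35 to 2.19 for N, -0.51 to 0.74 for slo, -0.052 to 0.96 for Shab, -0.38 to 0.58 for para, -0.23 to 1.18 for Kr, -2.98 to 7.03 for Delta, -1.29 to 2.11 for Ser, -9.49 to 2.28 for epsilonTry and -8.21 to 2.12 for Jon74E. The cause was not tested. Over the 45 genes, 253 of 270 values with 1 library left out and 376 of 401 under the other alternatives kept direction and side of the threshold. Depth limits genes with few counts, such as insv and DIP-kappa, and the share of spread and of counting error in the intervals was not tested.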
